A study of Drosophila melanogaster with 3 samples.

Results

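The deep intronic regions of the clockwork orange protein (cwo) were 348 of the 7366 regions, or 4.72%, that the authors kept as reproducible in Drosophila melanogaster embryos. A region was counted as deep intronic when its summit, the base of highest score, lay inside an annotated gene, in no exon of any transcript, and more than 10000 bp from the nearest annotated transcription start site (TSS) of any gene. The regions came from chromatin immunoprecipitation followed by sequencing (ChIP-seq) with an antibody against GFP. Per the labels, the chromatin was prepared from intact embryos collected between 6 and 24 h of age, with both sexes together, of a transgenic line that stably expresses cwo fused to GFP at its C-terminal end. The 3 libraries are biological replicates of this single group, so no condition could be compared with another, and the tagged protein was read in all embryonic cell types mixed together. Neither the promoter that drives the transgene nor the level of the tagged protein relative to the untagged one is given in the sources used here.

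cwo is a basic helix-loop-helix protein with an Orange domain, and it is known as a transcriptional repressor of the circadian feedback loop. It acts there on the E-box, the palindrome CACGTG, which the activators Clock and cycle also bind. Introns far from any start site can hold enhancers, and in flies the longest introns are often found in developmental regulators and in neuronal genes.

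The comparison set came from the pooled list, which holds 30000 regions called on the reads of all replicates together, including background regions that the authors' reproducibility procedure (IDR) needs. The 7366 kept regions, called optimal regions below, were also the 7366 highest-scoring regions of the pooled list. Background regions were pooled regions whose summit lay over 1000 bp from every optimal summit, 18722 in all, of which 1898 were deep intronic by the same rule. They were therefore weaker regions of the same libraries, and not an independent control.

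Of the 348 regions, 41 held the E-box within 100 bp of the summit. For 8 of the strongest, the next sequences span 60 bases centred on the E-box, which is in capitals, on the plus strand of dm6, so that the flanks of the sites can be compared.
Glut4EF region of rank 397, chr3R:9939449-9939508: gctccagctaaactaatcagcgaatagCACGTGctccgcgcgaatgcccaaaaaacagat
Glut4EF region of rank 541, chr3R:9891161-9891220: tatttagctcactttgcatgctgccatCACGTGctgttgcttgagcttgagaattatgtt
MESR3 region of rank 631, chr2L:18629315-18629374: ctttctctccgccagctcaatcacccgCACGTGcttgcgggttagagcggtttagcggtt
CG42788 region of rank 733, chr3R:15117782-15117841: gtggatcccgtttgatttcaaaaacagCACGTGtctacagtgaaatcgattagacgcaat
Eip75B region of rank 1348, chr3L:18014481-18014540: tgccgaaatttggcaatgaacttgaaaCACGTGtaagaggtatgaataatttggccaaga
bun region of rank 1392, chr2L:12521172-12521231: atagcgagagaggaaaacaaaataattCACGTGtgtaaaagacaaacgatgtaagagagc
CG34347 region of rank 1476, chr3R:31322466-31322525: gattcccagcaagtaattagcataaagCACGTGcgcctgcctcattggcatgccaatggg
mgl region of rank 1573, chrX:9416140-9416199: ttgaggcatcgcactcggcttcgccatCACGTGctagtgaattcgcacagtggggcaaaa

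The 3 strongest deep intronic regions, in mamo (2) and sbb, had no E-box. The next 4 sequences are the 61 bases centred on the summit for some of the strongest regions without CACGTG, again on the plus strand of dm6. Capitals mark any of the 24 listed motifs, read on both strands, such as CACGCG, a site that Hairy-related proteins bind. The mamo summit of rank 16 had CACGCG and GACGTC, the mamo summit of rank 231 had CACACA, the simj summit had TGATAA, and the B4 summit had none of the 24.
mamo region of rank 16, chrX:13890487-13890547: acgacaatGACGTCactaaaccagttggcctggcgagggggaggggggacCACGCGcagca
mamo region of rank 231, chrX:13890688-13890748: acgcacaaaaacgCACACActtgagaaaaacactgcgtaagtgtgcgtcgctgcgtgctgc
simj region of rank 404, chr3L:10678736-10678796: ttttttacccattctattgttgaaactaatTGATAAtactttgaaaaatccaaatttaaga
B4 region of rank 555, chr2L:13514501-13514561: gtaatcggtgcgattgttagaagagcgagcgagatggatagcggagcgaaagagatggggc

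Ranks count from 1 for the highest score in a list, and they are used because the scores of separately called lists are not on a common scale. The strongest deep intronic region lay in an intron of mamo, which encodes a BTB zinc finger protein first known from the female germ line, 42826 bp from the nearest TSS. Its pooled score was 7822, and its score was 2089, 2335 and 3417 in replicates 1, 2 and 3, which gave the ranks 10, 16 and 18. A second mamo summit 201 bp away, at pooled rank 231, had the ranks 822, 279 and 236. All 3 replicates therefore placed the first mamo summit among their strongest regions, while replicate 1 ranked the second one lower than the others did.

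The sbb region of pooled rank 292 ranked 122, 245 and 575 in replicates 1, 2 and 3; sbb encodes a transcriptional corepressor also called brakeless. The stronger Glut4EF region ranked 309, 436 and 428 around its pooled rank of 397, and another at pooled rank 541 ranked 1022, 442 and 570. Glut4EF encodes a DNA-binding protein, and its introns overlap those of CG46467, so that both genes host the same summits. The lilli region of pooled rank 571, in a gene of the AF4/FMR2 family that serves as a scaffold for transcription elongation, ranked 758, 472 and 631.

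The simj region of pooled rank 404 was missing from 1 replicate. simj encodes a subunit of the NuRD chromatin-remodelling complex. Replicates 2 and 3 ranked the region 461 and 356, but its summit lay in none of the 30000 regions of replicate 1. The GC content of the 201 bp around this summit was 23.9%, against 59.2% at the first mamo summit. The remaining regions among the 15 strongest lay in B4 (pooled ranks 555 and 659), CG12535 (589), MESR3 (631), rdx (724), CG42788 (733), Snoo (748) and Prosap (789). rdx encodes a BTB adaptor for the degradation of the Hedgehog effector Ci, Snoo the fly relative of the Ski and Sno corepressors, and Prosap a postsynaptic scaffold of the Shank family. All of these were found in every replicate.

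**Figure D1:**
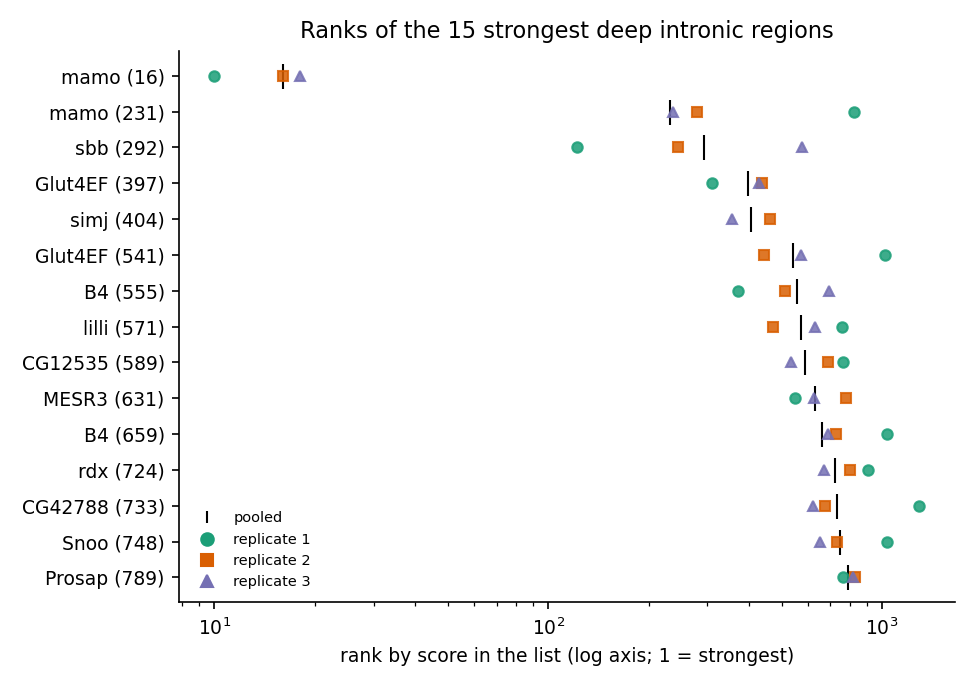
Rank by score, on a log axis, of the 15 strongest deep intronic regions in the pooled list (black ticks) and in each replicate list (coloured symbols), with the host gene and the pooled rank at the left. The first mamo region stood apart at ranks 10 to 18, and the simj region has no symbol for replicate 1.

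As a group the deep intronic regions ranked low among the optimal regions. Their median pooled rank was 4564 (quartiles 3007.5 and 6125), against 3626.5 for the other 7018 optimal regions. Only 13 of them (3.74%) were in the strongest 10% of the optimal list and 50 (14.4%) in the weakest 10%. When each replicate's own 7366 strongest regions were classed in the same way, the median rank of the deep intronic ones was 4428, 4566 and 4710 and that of the others 3646.5, 3633 and 3624. The difference was 933.5 ± 152.3 ranks (SD, n = 3), in the same direction in 3 of 3 replicates; the exact two-sided sign-flip test gave p = 0.25, the smallest that 3 replicates allow. The tests over regions below treat the regions as separate, although 62 of the 348 had another deep intronic optimal summit within 1000 bp.

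Fewer of them were also among the strongest regions of every replicate. A replicate was said to hold a region when the pooled summit lay inside 1 of that replicate's 7366 strongest regions. All 3 replicates held 222 of the 348 (63.8%), against 5074 of the 7018 others (72.3%), an odds ratio of 0.675 (95% interval 0.539 to 0.845; Fisher's exact test, two-sided, p = 7.6e-04). Replicates 1, 2 and 3 held 76.7%, 83.3% and 89.9% of the deep intronic regions and 84.7%, 89.7% and 90.7% of the others. Anywhere in the full lists, replicates 1, 2 and 3 had a region at 345, 346 and 347 of the 348 summits. When any region of a replicate list was counted, the odds ratio for all 3 replicates was 1.95 (exact p = 0.119). The lower share held among the strongest regions moved with rank. Within 5 equal bins of the pooled rank over the 7366 optimal regions, the Mantel-Haenszel odds ratio was 1.01, with a chi-square p = 0.999, an alternative chosen after the data had been seen. From the strongest to the weakest bin, all 3 replicates held 96.4%, 100%, 91.6%, 61.2% and 12.4% of the deep intronic regions and 97.7%, 95.2%, 89.6%, 59.2% and 17.7% of the others, so that the deep intronic share was lower in 2 bins and higher in 3.

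Base composition moved with the replicates as well. The 81 deep intronic regions that replicate 1 did not hold had a median GC content of 33.8%, against 37.3% for the 267 it held. The 35 that replicate 3 did not hold had 41.3%, against 36.8% for the 313 it held, the opposite order. The same opposite orders were seen in the other optimal regions, at 36.8% against 39.3% for replicate 1 and 42.8% against 38.8% for replicate 3. For replicate 2 the medians were close, at 37.1% for those not held against 36.6% for those held among the deep intronic regions, and 38.8% against 39.3% among the others. The deep intronic regions not held were also weaker. Their median pooled ranks were 6515, 6581.5 and 6723 for replicates 1, 2 and 3, against 4039, 4203.5 and 4329 for those held. The parts of base composition and of rank in which regions each replicate held were not tested.

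Deep introns held a smaller share of the optimal regions than of the weaker ones. Deep intronic summits made up 4.72% (Wilson 95% interval 4.26 to 5.23) of the optimal regions and 10.1% (9.71 to 10.6) of the background ones. The odds ratio was 0.440 (0.391 to 0.494; Fisher's exact test, two-sided, p = 1.8e-49). Within replicates the strongest 7366 regions were deep intronic in 4.29%, 4.47% and 4.68% of cases and the weaker ones in 8.78%, 10.3% and 9.80%. Of the 2439 pooled deep intronic regions 14.3% were optimal, where 24.6% of all pooled regions were.

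The density of optimal regions was lower at each step from the start sites. Introns between 1 and 2.5 kb from a TSS held 98.6 optimal regions per Mb, those between 5 and 10 kb held 48.0, those between 10 and 15 kb 35.8, those between 15 and 25 kb 22.1 and those beyond 25 kb 6.497. Background regions were also sparser far from start sites, at 217.2 per Mb between 1 and 2.5 kb, 163.1 between 10 and 15 kb and 42.7 beyond 25 kb. Over all deep intronic sequence the density was 20.2 per Mb, close to the 21.4 per Mb of intergenic sequence over 1000 bp from a TSS, and promoters, the sequence within 1000 bp of a TSS, held 126 per Mb. Part of the deep intronic sequence held no pooled region at all: 347 of the 784 protein-coding genes with such sequence had none, among them Myo81F with 1850 kb of it and Pzl with 675 kb. When only the sequence that the assembly does not mask as repeats was counted as length, the values were 28.1 and 147 per Mb for deep introns and promoters. All 348 and 3966 summits were kept in these values, including any in masked sequence, so they are upper limits for the unmasked sequence.

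The deep intronic regions themselves lay at a median of 14175.5 bp from the nearest TSS (quartiles 11960 and 19869), and the farthest at 59693 bp. Of the 348, 150 lay over 15000 bp and 84 over 20000 bp away. Just inside the limit were summits in CG46339, Efa6 and CG15465 at 10010, 10032 and 10044 bp, with pooled ranks of 6626, 5360 and 4788. Just outside it were summits in MESR3, nmo and hbs at 9961, 9964 and 9968 bp, with pooled ranks of 1284, 5195 and 5347. By chromosome arm, 112 lay on 3R, 76 on X, 64 on 2L, 50 on 2R and 46 on 3L, with none on the small chromosome 4. The density over deep intronic sequence ranged from 14.5 per Mb on 3L to 31.0 per Mb on 2L.

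The E-box was more frequent in the deep intronic optimal regions than in the deep intronic background, a direction shared by the other classes, given below. It was found within 100 bp of the summit in 41 of 348 regions (11.8%, 8.80 to 15.6) and in 127 of 1898 background regions (6.69%, 5.65 to 7.91). The odds ratio was 1.86 (1.28 to 2.70; Fisher's exact test, two-sided, p = 0.00176). Windows of the same length tiled across all deep intronic sequence held it in 2.10% of 83811 cases. When each replicate's own strongest and weaker regions were compared, the shares were 13.0% and 5.89%, 12.8% and 6.37%, and 11.3% and 6.71% in replicates 1, 2 and 3. The difference was 6.02 ± 1.28 percentage points (SD, n = 3; exact sign-flip p = 0.25, the smallest possible), and the stronger regions had the higher share in each replicate.

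The E-boxes were densest near the summits. In the deep intronic optimal regions the E-box occurred 22.99 times per 1000 regions and 20 bp within 40 bp of the summit and 1.29 times between 300 and 500 bp away. In the deep intronic background these values were 7.64 and 2.29. In the bins centred from -270 to -210 bp, the E-box occurred 8.62 to 11.5 times in the optimal regions, against 2.63 to 4.21 in the background. In those centred from 210 to 270 bp it occurred 0 to 2.87 times, against 1.05 to 7.38. The median distance of the E-box from the summit was 21.5 bp over the 41 regions, and 18 of the 41 lay within 20 bp. The base before CACGTG, read on both strands of 42 sites, was G in 39.3%, T in 32.1%, A in 26.2% and C in 2.38% of cases, where C made up 11.1% at the 135 background sites and 6.89% at 341 sites of intronic optimal regions nearer to a TSS. These shares were not tested.

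**Figure D2:**
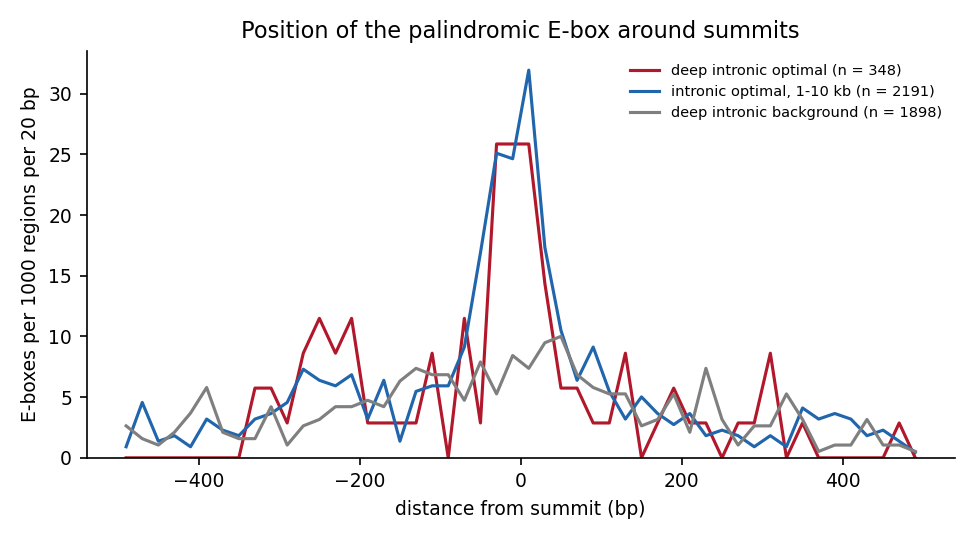
E-boxes per 1000 regions and 20 bp against the distance from the summit, for deep intronic optimal regions (red), intronic optimal regions 1000 to 10000 bp from a TSS (blue) and deep intronic background regions (grey). Both optimal sets peaked at the summit, where the background showed a low and broad rise.

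With the 10000 bp limit, the E-box share of the deep intronic regions was not distinguishable from that of other optimal regions. It was 15.02% in intronic optimal regions between 1000 and 10000 bp from a TSS (329 of 2191), 13.0% in promoters (515 of 3966) and 11.9% in intergenic optimal regions over 1000 bp from a TSS (86 of 720). The odds ratios of deep intronic regions against these were 0.756 (0.535 to 1.07), 0.895 (0.638 to 1.26) and 0.985 (0.663 to 1.46), with adjusted p = 0.361, 0.840 and 1.00 over the 3 comparisons (Fisher's exact test, Benjamini-Hochberg). The first interval holds both an equal share and one well below that of nearer introns. With TSSs of protein-coding genes alone, the odds ratio against nearer introns was 0.707 (exact p = 0.0370). With the deep limit at 20000 bp it was 0.362 (exact p = 0.0182). These p values were under 0.05 but were not adjusted, unlike those above. With the 10000 bp limit and all TSSs, the unadjusted exact p against nearer introns was 0.120. The background shares were 5.42% in nearer introns, 4.65% in promoters and 7.01% in intergenic regions, beside 6.69% in deep introns. In exons over 1000 bp from a TSS the optimal share was 14.2% and the background share 6.37%. Every class thus had a higher share in its optimal regions. The gap was wider in nearer introns and promoters than in deep introns, which was not tested.

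The E-box share differed along the distance within the deep intronic regions. Between 10 and 15 kb from a TSS, 32 of 198 regions (16.2%, 11.7 to 21.9) held it, between 15 and 25 kb 5 of 105 (4.76%, 2.05 to 10.7), and beyond 25 kb 4 of 45 (8.89%, 3.51 to 20.7). The background shares at these distances were 6.541%, 6.14% and 8.45%. In regions over 15000 bp away the E-box was in 9 of 150 (6.00%) optimal and 68 of 996 (6.83%) background regions. The odds ratio there was 0.871 (exact p = 0.861), against 2.75 (exact p = 4.4e-05) between 10000 and 15000 bp. The 15000 bp limit was chosen after the shares had been seen, and the difference between the 2 odds ratios was not tested. With the deep limit set at 20000 bp instead of 10000 bp, the odds ratio was 0.744 (exact p = 0.662) over 84 optimal regions.

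**Figure D3:**
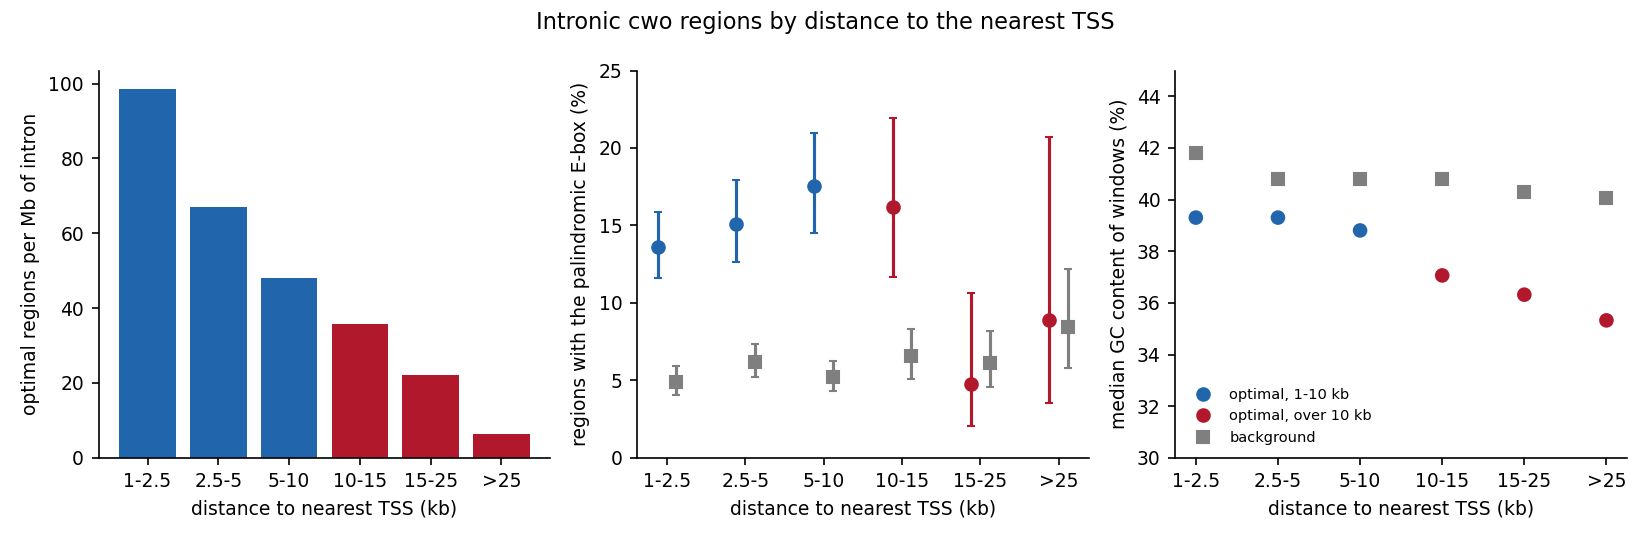
Intronic regions by distance to the nearest TSS in kb: optimal regions per Mb of intron (left), the share with the E-box within 100 bp of the summit, with Wilson 95% intervals (middle), and the median GC content of 201 bp windows (right). Blue marks optimal regions at 1 to 10 kb, red the deep intronic ones and grey the background; the E-box share was 16.2% at 10 to 15 kb and 4.76% at 15 to 25 kb.

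The deep intronic optimal regions were poor in G and C. Their 201 bp windows had a median GC content of 36.8% (quartiles 32.3% and 42.9%), against 40.8% in the deep intronic background and 40.3% in tiled windows. By replicate the strongest regions had 39.3%, 37.3% and 36.3% and the weaker ones 42.3%, 41.8% and 40.3%, a difference of -3.81 ± 0.76 percentage points (SD, n = 3; exact sign-flip p = 0.25, the smallest possible). A lower median GC content than in the background of the same class was not particular to deep introns. It was 39.3% against 41.3% in nearer introns, 39.3% against 42.8% in promoters and 41.3% against 48.0% in exons over 1000 bp from a TSS. In intergenic regions it was 37.3% against 40.3%, close to the deep intronic values. These differences were not tested. The E-box itself is rich in G and C, so the deep intronic shares were also compared within 5 bins of GC content. The E-box was in 3 of 95, 4 of 90, 13 of 68, 9 of 52 and 12 of 43 optimal regions from the lowest to the highest bin, and in 0.909%, 4.18%, 5.45%, 10.4% and 11.0% of the background. Over the bins, with 348 optimal and 1898 background regions, the Mantel-Haenszel odds ratio was 2.49 (1.69 to 3.67), with a chi-square p = 3.2e-06, above the 1.86 without bins.

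**Figure D4:**
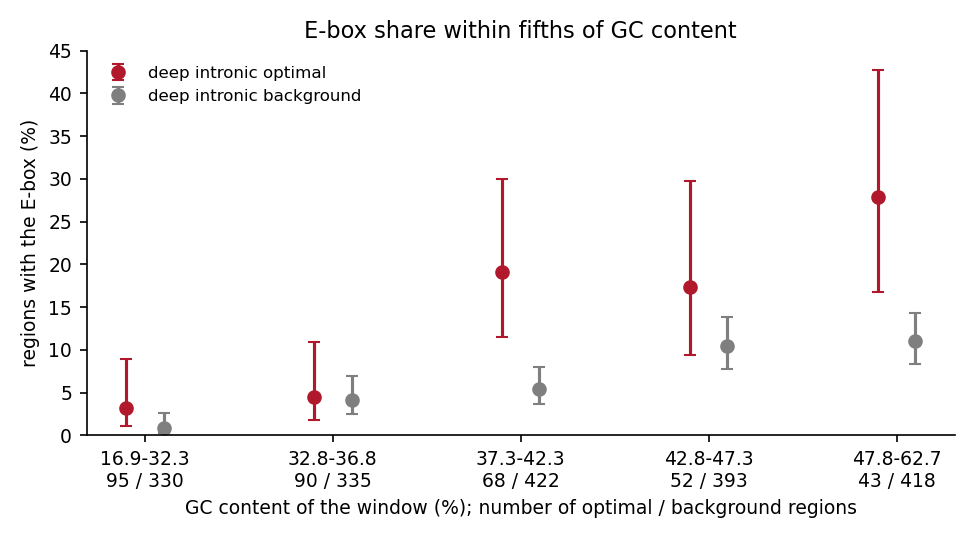
Share of deep intronic optimal (red) and background (grey) regions with the E-box within 100 bp of the summit, in 5 bins of the GC content of the window, with Wilson 95% intervals. The share was higher in the optimal regions in each bin, and the bins of low GC content held few E-boxes in either set.

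No other listed motif passed the test. Of the 24 motifs compared with the deep intronic background, CACGTG alone had an adjusted p under 0.05 (0.0422, Fisher's exact test with Benjamini-Hochberg adjustment over the 24). AGATAA, a site of GATA factors, was in 16.4% of optimal and 11.5% of background regions (exact test, adjusted p = 0.138), and GAGAGA, the site of the GAGA factor, in 14.4% and 9.85% (adjusted p = 0.138). CACGTT, which differs from the E-box in its last base, was in 10.9% and 7.80% (exact test, adjusted p = 0.195), and CACGCG in 5.46% and 4.27% (adjusted p = 0.595). The control palindrome CTCGAG had a larger odds ratio than the E-box, at 1.99 (adjusted p = 0.185 by the exact test), and the control GTGCAC had 1.45. These 2 controls and the 4 motifs named before them were all higher in the stronger regions of 3 of 3 replicates. The CACGTG call depended on the window: within 200 bp of the summit its odds ratio was 1.45 (exact test, adjusted p = 0.133), and 3 others passed, CACGTT with 1.59, GAGAGA with 1.51 and the control GTGCAC with 1.66.

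Over all 2080 hexamers, each counted with its reverse complement, 2 were more frequent in the deep intronic optimal regions than in the background (0.0962%) and 1 was less frequent (0.0481%) at an adjusted p under 0.05 by Fisher's exact test with Benjamini-Hochberg adjustment. The more frequent ones were AATATA (35.9% against 24.9%, exact test, adjusted p = 0.0263) and TATAAA (35.6% against 24.7%, adjusted p = 0.0263). The next by p, which did not pass, were AAAAAT (54.9% against 43.9%), AAATAT (49.7% against 39.1%) and AAAAAA (48.3% against 38.1%). The less frequent one was GCAGGA (2.30% against 7.96%, exact test, adjusted p = 0.0263). It was followed by GGAGAC (0.575% against 4.004%), AGGACG (0.287% against 3.32%), AGCTGC (7.18% against 13.9%) and GAATGC (5.17% against 11.0%), which did not pass. Neither of the more frequent hexamers passed without replicate 1, 2 or 3, with the background beyond 2000 bp or with 1 summit per merged locus, where the count of calls was 0. At an unadjusted p under 0.05 there were 126 and 119 in all, and CACGTG was the 15th of the more frequent hexamers by p. The leading hexamers move with the lower GC content of the optimal windows, and its part in these calls was not tested.

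The E-box shares of the strongest and the weakest 25% of the 348 regions were not distinguishable by the test, which left out the regions between. The E-box was in 15 of the 87 strongest (17.2%), 12 and 4 of the 87 in each group between, and 10 of the 87 weakest (11.5%). The odds ratio of strongest against weakest was 1.60 (0.677 to 3.80, Fisher's exact test, two-sided, p = 0.388), with a wide interval. When the regions were limited to those that both of 2 replicates held, the odds ratio was between 4.56 and 4.67 for the 3 pairs of replicates (exact p = 0.0109 to 0.0116). In each replicate's own list the share was 20.3%, 16.9% and 19.5% in the strongest 25% and 12.7%, 13.3% and 6.90% in the weakest 25%. Among the 15 strongest regions, 4 held it, in Glut4EF (both regions), MESR3 and CG42788.

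The regions were spread over many genes but gathered in a few. Of the 784 protein-coding genes with deep intronic sequence, 177 (22.6%) hosted at least 1 of the regions. These genes held 341 of the 348 regions, and the other 7 lay in non-coding genes. A single region was hosted by 95 genes and 2 or more by 82. Host genes had a median of 18.2 kb of deep intronic sequence and the genes without a region 7.11 kb. The nearest TSS was that of a host gene for 197 regions (56.6%), and 160 regions (46.0%) lay in a first intron of a host transcript.

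sbb and Snoo hosted the most, with 13 regions each, counted by summit. Some of these summits were close neighbours, such as those 19.905 and 20.116 kb from the 5' end of sbb. The sbb regions all lay in its first intron of 49364 bp, and 25.5 kb of the gene's introns was over 10000 bp from any TSS, and 10 of the 13 were held by all 3 replicates. Their pooled ranks ran from 292 to 7318, and 1 of them, at rank 1718, held the E-box, 3.5 bp from the summit. The Snoo regions lay in a first intron of 78434 bp, with pooled ranks from 748 to 7353 and 11 of 13 held by all replicates. In Snoo 2 regions held the E-box. Both genes encode corepressors, and both also had optimal regions at a promoter.

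Next were kirre with 7 regions, Glut4EF with CG46467 (the same 6), CG12535 with 6, rdx with 6, and ftz-f1 and Tet with 5 each. kirre encodes an adhesion protein of the immunoglobulin superfamily that acts in myoblast fusion. Its regions were all weak, with pooled ranks from 4333 to 5918, none held the E-box, and its promoters had no optimal region. The CG12535 regions also lay in an intron of a long non-coding RNA annotated on the other strand. The TSS nearest to the strongest of them, 26259 bp away, was annotated both for that RNA and for Myc, a basic helix-loop-helix regulator of growth. ftz-f1 encodes a nuclear receptor that sets developmental timing, and its 5 regions had pooled ranks from 1356 to 6420, of which 2 were held by all replicates. None of its regions held the E-box. Tet, which encodes a dioxygenase that acts on methylated bases, had pooled ranks from 2723 to 5865, and all replicates held 4 of its 5 regions. The 8 genes from sbb to ftz-f1, counting CG46467, together hosted 56 of the 348.

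**Figure D5:**
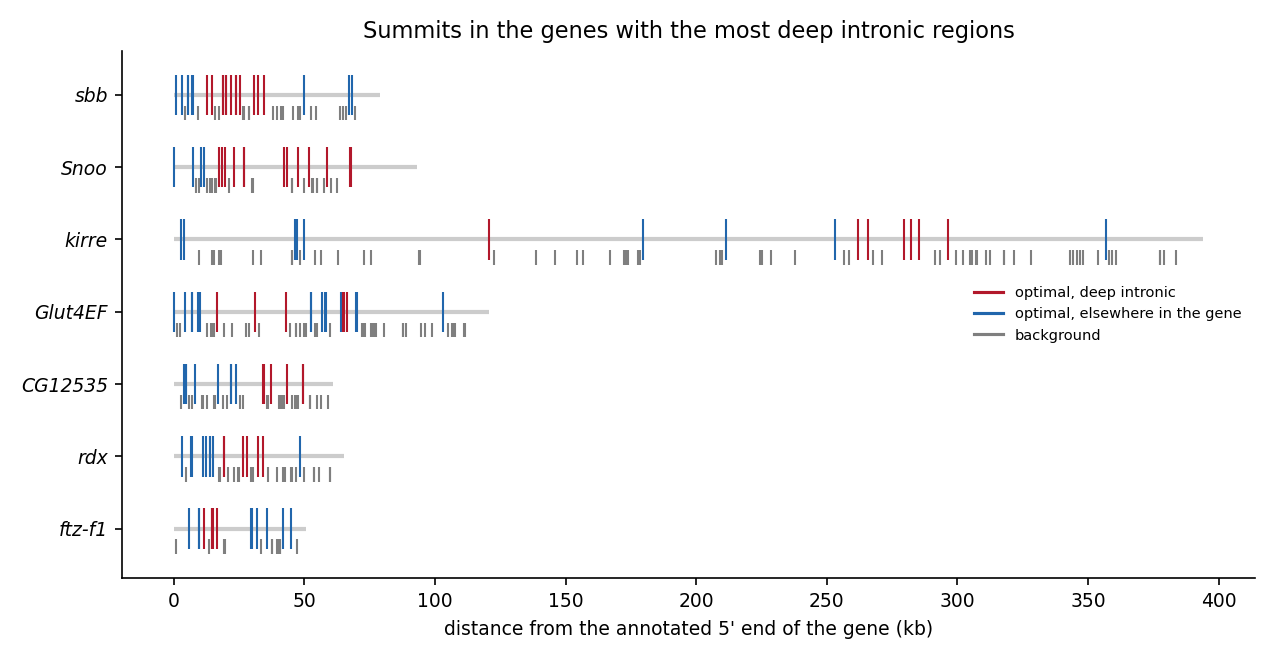
Summits along the genes with the most deep intronic optimal regions, by distance in kb from the annotated 5' end of the gene: deep intronic optimal (red), other optimal (blue) and background (short grey ticks). CG46467 is left out because it shares its summits with Glut4EF, and Tet, which tied with ftz-f1, is not drawn. The 13 red summits of sbb lie close together. In the far longer kirre, most of the 7 red summits lie between 262 and 296 kb, and another lies at 121 kb.

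With 1 host gene counted per region, the E-box regions lay in 36 host genes, of which Glut4EF had 3 and MESR3, Snoo and Antp had 2 each. The overlapping genes CG46467, with the same 3 as Glut4EF, and CG46458, with 1, were not counted. MESR3 is named for a genetic interaction with Ras. Antp encodes a Hox protein, and its regions ranked 4277, 4387 and 6668. Of the strongest sequences shown above, the Eip75B region ranked 769, 1685 and 1829 in replicates 1, 2 and 3, and the bun region 1612, 1814 and 1211. Eip75B encodes an ecdysone-induced nuclear receptor that binds heme, and bun a member of the TSC22 family. The farthest E-box region lay in hth, 47656 bp from a TSS, at pooled rank 3917; hth encodes a homeodomain cofactor of Hox proteins.

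Host genes often had an optimal region at a promoter as well. This was so for 93 of the 177 host genes (52.5%), 199 of the 607 genes with deep intronic sequence but no region in it (32.8%), and 25.3% of all 13945 protein-coding genes. In 3 groups of the genes of about equal size, from the shortest to the longest by length of deep intronic sequence, the counts were 10 of 14 hosts and 97 of 247 others, 37 of 64 and 72 of 197, and 46 of 99 and 30 of 163. No test was run on these counts.

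Hosts were then counted in lists of genes by role, beside the 22.6% of all genes with deep intronic sequence. The share of hosts rose with the length of that sequence. It was 5.36%, 24.5% and 37.8% from the shortest to the longest of the 3 groups above. The counts by list were not adjusted for this length, and its part in them was not tested. Among nuclear receptor and ecdysone response genes, 4 of 12 hosted a region: Eip75B, ftz-f1, EcR, the ecdysone receptor, and Hr4, another nuclear receptor. They held 12 regions, 71.9 per Mb of their deep intronic sequence, 1 of them with the E-box. The strongest EcR region had pooled rank 2061 and the ranks 1605, 3051 and 2085 in replicates 1, 2 and 3, and 1 of the 4 EcR regions was held by all replicates.

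Developmental transcription factors hosted regions in 15 of 37 genes, with 31 regions in all, 41.4 per Mb, of which 4 held the E-box. The strongest were in mamo, bun and hth. The count for chromatin regulators was 3 of 9 genes with 9 regions, in gpp, the fly Dot1 histone methyltransferase, tara, a cofactor of chromatin regulation, and psq, a BTB protein that binds GAGA sites. For basic helix-loop-helix factors it was 2 of 7, in crp and in tai, a coactivator of the ecdysone receptor. Growth factor, morphogen and planar polarity genes hosted regions in 9 of 24, led by nkd, an inhibitor of Wingless signalling, and the Frizzled receptors fz and fz2. Kinase, phosphatase, phosphodiesterase and G-protein genes did so in 7 of 19, led by the phosphodiesterases dnc and Pde11 and the receptor phosphatase Ptp10D, and none of their 14 regions held the E-box.

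Of the other lists, some had densities below the 20.2 per Mb of all deep intronic sequence and some above it, differences that were not tested. Axon guidance and cell adhesion genes hosted regions in 12 of 53 genes (22.6%, the share over all genes), with 17 regions or 12.6 per Mb and none with the E-box, led by Nrg, ed and DIP-gamma. Ion channel and neurotransmitter receptor genes did so in 4 of 31, with 4 regions or 6.17 per Mb, none with the E-box, led by mAChR-B, Elk and nAChRalpha6. Muscle and cytoskeleton genes hosted regions in 2 of 18 genes, kirre and the integrin gene if, with 8 regions or 23.7 per Mb. RNA-binding and splicing genes did so in 4 of 17, with 9 regions or 11.7 per Mb, led by msi, cpo and pum. Of the Notch pathway genes, N and kuz hosted regions, 2 of 6, with 3 regions or 54.0 per Mb. Antp was the host among 4 Hox genes, with 3 regions or 28.9 per Mb.

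Few clock genes could host such a region. Of the 8 genes of the clock loop, 1 had deep intronic sequence, 2.47 kb of it, and it hosted none. Of 12 enzymes and F-box proteins with clock proteins as substrates, 3 had deep intronic sequence and 1, Pka-C1, hosted a region, at pooled rank 5066. GATA factors (2 genes) and genes of lipid, sugar and membrane transport metabolism (2 genes) hosted none.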

How the data were processed

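Regions came from the lists on dm6 that the authors deposited: 1 per replicate and 1 on pooled reads, of 30000 regions each, and the optimal list of the reproducibility procedure. The value used is the score in the signal column of the authors' peak caller; it was used only to rank regions within a list. The aligner, the peak caller, any version and the reproducibility threshold: none is given in the sources used here. Read depth is unknown, so intervals cover counting error over regions. The lists on dm3 were not used here.

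Summits were placed on Ensembl release 115 genes, without transposable elements, on the 6 main chromosome arms; sequences came from the RefSeq copy of the same assembly. Classes were promoter (within 1000 bp of a TSS) and, for all other summits, exon, intergenic, and introns up to or beyond 10000 bp. Motifs were sought on both strands within 100 bp of a summit. Replicate ranks printed for a region are those of the holding replicate region with the nearest summit. Shares were compared with Fisher's exact test and Woolf intervals, and with the Mantel-Haenszel odds ratio over 5 bins of GC content or of rank (Python 3.11.15, scipy 1.17.1, statsmodels 0.14.6). Benjamini-Hochberg adjustment ran over all hexamers or all listed motifs. The hexamer scan was tried on background windows with implanted hexamers. Both sets there came from the background, so the trial could not show how the GC difference of the real sets affects the calls. Named genes were the hosts of the 15 strongest regions, the 8 genes hosting most, and up to 3 hosts per list by score; others were chosen after their values were seen. The gene lists matched 661 of 678 symbols. The regions and the gene lists were chosen with earlier results of these data known. Alternatives varied distance limits, annotation, motif window, background, replicates, strength, merged loci and base composition.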

Additional observations from a re-analysis of the deposited data

How the results depend on the processing

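No paired analysis was possible because the samples form 1 group. Of 152 alternative values for the main comparisons, 119 did not change a call or a sign past the threshold, or moved little; 10 of these were odds ratios that reached or crossed 1 with neither value past the threshold, such as 1.09 against nearer introns and 1.21 against promoters at 5000 bp. With deep introns set beyond 5000 and 20000 bp, there were 879 and 84 regions, median rank differences of 683 and 1635 in place of 937.5, and GC differences of -2.99 and -4.98 percentage points in place of -3.98. At 20000 bp the E-box odds ratio was 0.744 against the background and 0.362 (exact p = 0.0182) against nearer introns, and over 15000 bp alone 0.871; with TSSs of protein-coding genes it was 0.707 against nearer introns. At 5000 bp the odds ratio of the strongest against the weakest 25% was 3.45 and that of being held by all replicates 0.877 (exact p = 0.101). The latter was 1.64 in the strongest 3683 optimal regions, 1.95 with any region of a replicate list and 1.01 within 5 bins of rank. The strongest 3683 held 119 regions, a GC difference of -2.99 and hosts in 11.1% of genes; hosts were 40.5% of genes with a pooled deep intronic region. Without each replicate, the odds ratio of the strongest against the weakest 25% was 4.56 to 4.67 in place of 1.60, in sets of 239 to 264 regions that both other replicates held. Hexamer calls were few and unstable: more frequent ones numbered 1 with a 200 bp window and 0 with a background beyond 2000 bp, with merged loci and without any replicate (0 to 0); less frequent ones numbered 0 with a 50 bp window and with merged loci, and 0 to 1 without a replicate. With a 200 bp window 3 listed motifs passed the exact test: CACGTT with an odds ratio of 1.59, GAGAGA with 1.51 and the control palindrome GTGCAC with 1.66. CACGTG did not, at 1.45 (exact test, adjusted p = 0.133). The causes of these shifts were not tested. The alternatives by bins of rank, by the 15000 bp limit, with all other pooled regions as background, with hosts limited to genes with a pooled region, and without 481 unnamed non-coding annotation entries were chosen after seeing the data.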
